A study of Arabidopsis thaliana with 3 samples.

Results

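The plastid genome of Arabidopsis thaliana carries, besides genes for photosynthesis, genes for the machinery that reads and translates it and a few genes of other roles. Probe sets for these genes were chosen by gene symbol and plastid locus in the naming table of the array, with no filter on signal: rpo genes for the plastid RNA polymerase, rps and rpl genes for plastid ribosomal proteins, and matK, clpP, accD, ccsA, cemA and the ycf genes. The rule found 26 probe sets, each for a different gene, of the 22746 probe sets analysed. There were 4 for RNA polymerase, 15 for ribosomal proteins (8 of the small and 7 of the large subunit) and 7 for other genes. Mitochondrial genes that share an rps or rpl name were not members. Another 7 probe sets were listed with 2 plastid gene records of 1 symbol, were not counted as members and are not named.

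Chloroplast genes are transcribed by a bacterial-type polymerase, whose core subunits are encoded in the plastid and whose sigma factors are encoded in the nucleus, and also by phage-type polymerases encoded in the nucleus. The cluster of rpoB, rpoC1 and rpoC2, and accD, are read mainly by the nuclear-encoded enzymes. Many plastid genes lie in clusters that are transcribed together and then cut, spliced and trimmed, so that neighbouring genes can still differ in RNA level. Plastid ribosomes are of the bacterial type, and their proteins are encoded partly in the plastid and partly in the nucleus.

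The 3 arrays came from whole plants of the Col-0 accession (stock N1092) at developmental stage 1.04, grown for 14 days on 1% phytagel with MS medium and 1.5% sucrose in a photoperiod of 16 hours. The labels also record 48 hours of darkness and 48 hours at 4 °C. The control plants were flooded with 1 mL of water (1 array) and the treated plants with 1 mL of 2,4-D at pH 7.0, a synthetic auxin used as a herbicide, at 1 mM (2 arrays), in both cases for 1 hour. No label says whether the treated samples were grown or treated separately, so the spread between the treated arrays, on which the p-values rest, may be technical. In the main fit that spread was pooled over probe sets of like signal. A gene's own spread had no weight in its standard error or p-value, and the water array gave none. Each array was an Affymetrix ATH1 array, with total RNA as the starting material and biotin as the label. Signals are MAS5 intensities on a linear scale, and a signal of one probe set cannot be set against that of another as a level. In whole plants, fewer cells with plastids and less plastid RNA per cell cannot be told apart.

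The arrays differed in ways that bear on these values. The median signal was 41.9 for water, 38.7 for 2,4-D replicate 1 and 38.5 for 2,4-D replicate 2. The bioB hybridisation controls had geometric means of 228, 102 and 79.8 on the same arrays, so that the water array stood apart. Among nuclear markers of green tissue, 3 of 7 had a named probe set, and their summed signal was 19971 for water, 13273 for 2,4-D replicate 1 and 20422 for replicate 2. None of them was called by limma (0 of 3, lowest adjusted p 0.329, none at an unadjusted p under 0.05). Of 7 root markers 3 had a named probe set, with summed signals of 2321, 3008 and 2458, nearly all of it from BGLU23 (PYK10), which was tested and not called. The other root markers, both of root hairs and too dim on average to enter the fit, went the other way. EXPA7 had 37.0 with water against 15.1 and 15.3, and EXPA18 had 43.8 against 7.98 and 3.55, both of the latter below the brightest dim bacterial control of their own array. The part of these differences in the results below was not tested.

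Treated and control plants were compared to learn which of these transcripts changed under a herbicidal dose of auxin. The genes outside transcription and translation were mostly higher: matK, accD, ycf4, ccsA and clpP rose, by 1.46-fold to 2.46-fold. Among ribosomal protein genes rpl22 and rps2 rose, while rpl20, rpl32 and rpl36 fell. Of the RNA polymerase genes rpoC1 fell, and rpoA and rpoC2 did not pass the test. In all, 7 of the 25 members tested were called higher and 4 lower by limma at an adjusted p below 0.05, against 10.8% of the 13648 tested probe sets called higher and 10.5% called lower. With the arrays scaled to 1 median the members called were 8 higher and 1 lower, and 67.1% of all calls were higher in place of 50.7%. The fourth RNA polymerase gene, rpoB, was too dim to be tested, and rps14 and rps15 passed the filter on low signal (a mean of at least 24.8) only through the group in which they were brighter.

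Whatever the test, 15 of the 26 members lay above water on both treated arrays, against 32.5% of all 22746 probe sets, and 8 lay below it on both, against 46.3%. The other 3 (cemA, rpl16 and rps18) lay on either side. The median log2 change over the 26 members was 0.17 on 2,4-D replicate 1 and 0.28 on replicate 2, beside -0.12 on either array over all probe sets. Changes of at least 2-fold on both arrays were found for 2 members, matK and accD, against 5.89% of all probe sets higher by that much, and for 0 members in the downward direction, against 8.63%. With 3 arrays an exact two-sided permutation test cannot give a p below 0.333.

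**Figure D1:**
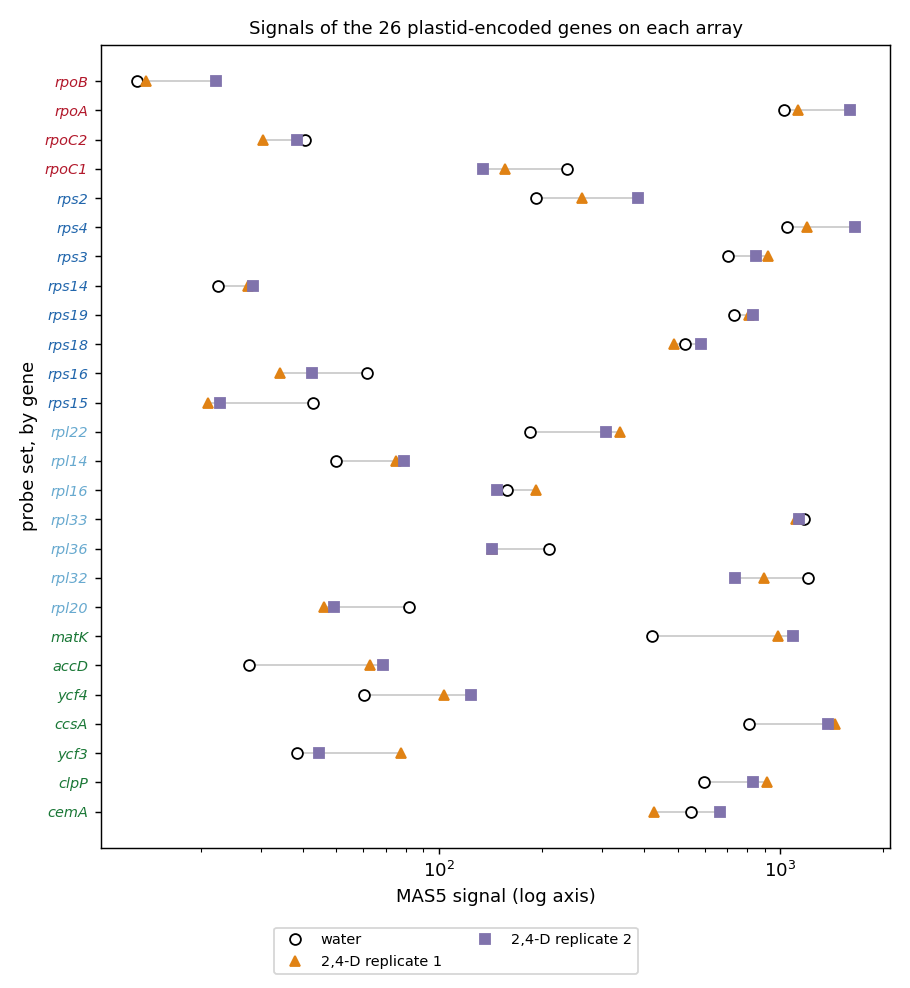
MAS5 signal (log axis) of each of the 26 genes on the water array (open circles), 2,4-D replicate 1 (triangles) and 2,4-D replicate 2 (squares). Names are coloured by class, from RNA polymerase at the top through the ribosomal small and large subunits to the other genes. The treated points of matK, accD and ccsA lie together to the right of water, whereas those of rpoA, rps2 and ycf3 lie far from each other.

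Among the genes of other roles, matK and accD were the ones at least 2-fold higher on both treated arrays. The first encodes the plastid maturase, which takes part in splicing introns of plastid RNAs. The signal of matK was 421 for water and 987 and 1089 for 2,4-D, or 2.46-fold higher in 2 treated arrays against 1 control (log2 change 1.301 with a standard error of 0.21, as after ± in what follows, limma adjusted p = 1.7e-08). The treated arrays lay close together, with a gap of 0.14 log2 units, and well above water.

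The accD gene encodes the plastid-made subunit of acetyl-CoA carboxylase, which starts fatty acid synthesis. Its signal went from 27.7 with water to 62.6 and 68.4 with 2,4-D, and it was 2.36-fold higher (log2 change 1.24 ± 0.33, limma adjusted p = 0.0017). All 3 signals were above the brightest of the dim bacterial controls, whose signals were 13.9 (water), 10.7 (2,4-D replicate 1) and 8.37 (2,4-D replicate 2). The rise was thus measured on both sides, though from a dim water value. With an offset of 16 added to the signals, the log2 change of accD was 0.90, less than 2-fold (limma adjusted p = 0.0026).

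Both ycf genes act in the assembly of photosystem I. The signal of ycf4 was 60.4 for water and 104 and 124 for 2,4-D, which made it 1.88-fold higher (log2 change 0.91 ± 0.25, limma adjusted p = 0.0025). The signal of ycf3 was 38.3 for water and 77.1 and 44.4 for 2,4-D, and its change of 0.61 ± 0.32 did not pass (limma adjusted p = 0.17). The treated arrays disagreed on ycf3 more than on any other of these genes: their gap was 0.80 log2 units, with 2,4-D replicate 2 close to water.

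The ccsA gene encodes a protein that attaches haem to c-type cytochromes. It rose from 809 for water to 1449 and 1379, or 1.75-fold (log2 change 0.81 ± 0.23, limma adjusted p = 0.0033). For clpP, a catalytic subunit of the Clp protease of the stroma, signals were 597 with water and 915 and 833 with 2,4-D (a change of 0.55 ± 0.21, limma adjusted p = 0.041). That call was lost once dim probe sets were tested too (adjusted p = 0.119) and when the variance was estimated without a trend over signal (adjusted p = 0.17). The latter also ended the call of ccsA (adjusted p = 0.0583). The envelope membrane protein gene cemA lay on both sides of water, with 549 for water against 428 and 668, and a change of -0.04 ± 0.20 that turned to 0.08 when the arrays were scaled to 1 median.

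As a class, 5 of these 7 genes were called higher and 0 lower by limma, against 10.8% and 10.5% of all tested probe sets. At an unadjusted limma p under 0.05 also 0 were lower. Above water on both treated arrays lay 6 of the 7, against 32.5% of all probe sets. The median log2 change of the 7 genes was 0.84 on 2,4-D replicate 1 and 0.77 on replicate 2. The latter was 0.48 when the probe sets listed with 2 plastid gene records were added, an alternative chosen after seeing the data.

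**Figure D2:**
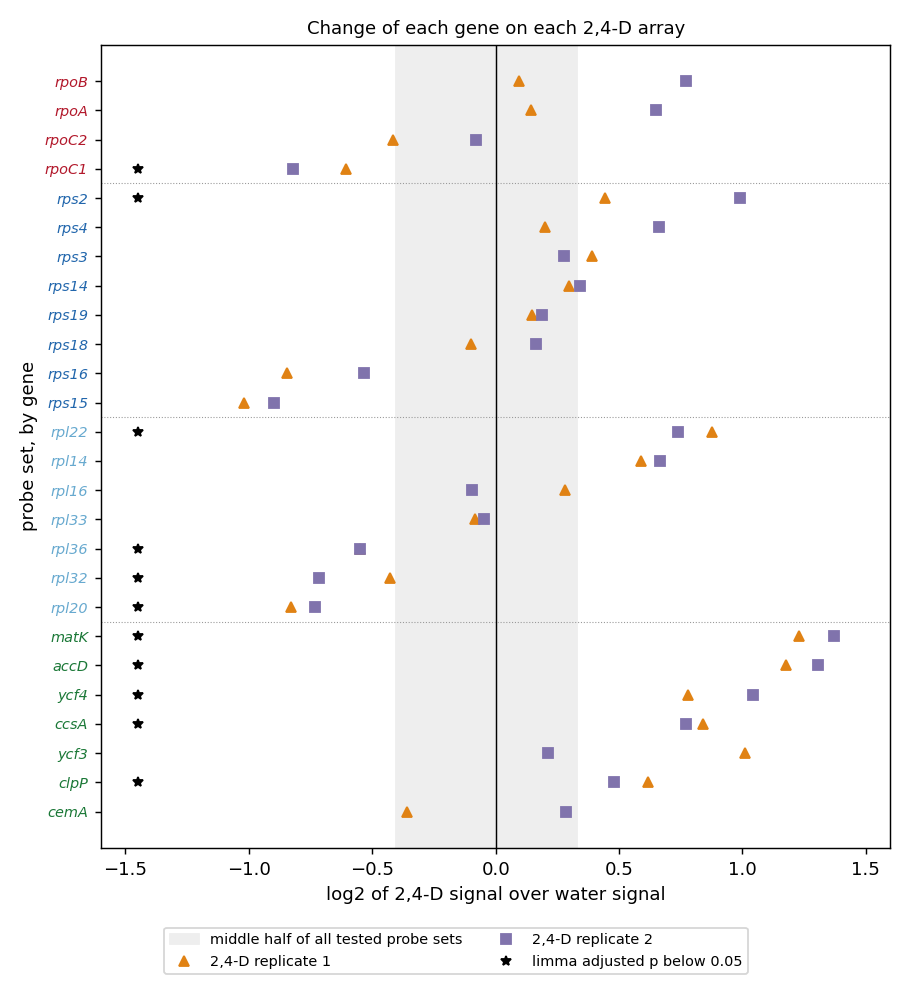
Log2 of the signal on 2,4-D replicate 1 (triangles) and replicate 2 (squares) over water for each of the 26 genes, sorted by mean change within the classes, which dotted lines separate. Stars mark genes with a limma adjusted p below 0.05, and the grey band spans the interquartile range of all tested probe sets, widened to hold both arrays. The other genes (bottom) lie mostly to the right of the band, and the ribosomal genes lie on both sides of it.

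The RNA polymerase genes encode the alpha subunit (rpoA), the beta subunit (rpoB) and the split beta-prime subunit (rpoC1 and rpoC2) of the bacterial-type enzyme. The signal of rpoC1 fell from 237 for water to 156 and 134 with 2,4-D, or 1.64-fold (log2 change -0.71 ± 0.21, limma adjusted p = 0.0052). Its call was lost without the trend over signal (adjusted p = 0.0914). Both treated arrays lay below water by at least 0.61 log2 units.

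The cluster neighbours of rpoC1 did not pass the test or were too dim for it. For rpoC2 the signal was 40.6 for water and 30.4 and 38.4 for 2,4-D, a change of -0.25 ± 0.38 (limma adjusted p = 0.701). For rpoB it was 13.0 for water, below the brightest dim control of that array, and 13.9 and 22.1 for 2,4-D. The 2,4-D values of rpoB lay above the dim controls of their own arrays and above water, but rpoB did not pass the filter. The size of its change is not given, since the water signal gives only a bound.

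The rpoA gene, which stands at the end of a cluster of ribosomal protein genes, gave 1023 on the water array and 1128 and 1606 with 2,4-D. Its change of 0.40 ± 0.23 did not pass (limma adjusted p = 0.215), and 2,4-D replicate 1 lay much nearer to water than replicate 2 did. Over the 4 polymerase genes the median log2 change was -0.16 on 2,4-D replicate 1 and 0.29 on replicate 2. The latter rests on rpoB: without that dim probe set it was -0.08. On both arrays rpoC1 and rpoC2 lay below water and rpoA above it.

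For the ribosomal small subunit, 1 of 8 genes was called, and it was higher, against 10.8% of all tested probe sets called higher. The signal of rps2 was 193 for water and 262 and 382 for 2,4-D, so that it was 1.64-fold higher (log2 change 0.72 ± 0.20, limma adjusted p = 0.0026). The size of that rise depended on the array, at 0.44 on 2,4-D replicate 1 alone and 0.99 on replicate 2 alone. The call also ended without a filter (adjusted p = 0.0698) and without the trend over signal (adjusted p = 0.133).

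The lowest changes of the small subunit were those of rps15 and rps16. In Escherichia coli the protein S15 binds ribosomal RNA early in assembly. The signal of rps15 was 42.6 for water and 21.0 and 22.9 for 2,4-D, a change of -0.96 ± 0.45 that did not pass (limma adjusted p = 0.115). Its treated arrays lay close together and far below water, but the error assigned to probe sets this dim was wide. Without the trend over signal its limma adjusted p was 0.0332, which is no support for a fall, since rps15 passed the filter only through its water signal. In a separate fit, with the trend kept and no filter, its limma adjusted p was 0.251. For rps16 the signal was 61.3 for water and 34.1 and 42.4 for 2,4-D (-0.69 ± 0.34, limma adjusted p = 0.143).

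The rps4 gene, whose product in Escherichia coli helps to start the assembly of the small subunit, had 1044 for water and 1200.5 and 1652 for 2,4-D (0.43 ± 0.23, limma adjusted p = 0.174). The rps3 gene had 702 for water and 920 and 851 for 2,4-D (0.33 ± 0.21, limma adjusted p = 0.263). Both lay above water on each treated array without passing. Signals of rps14 were 22.4 for water and 27.5 and 28.5 for 2,4-D, those of rps19 were 730, 808 and 831, and those of rps18 were 525, 490 and 587. Among these, rps18 overlapped water, and its change of 0.03 turned to -0.01 after quantile normalization. The median log2 change of the 8 genes was 0.17 on 2,4-D replicate 1 and 0.23 on replicate 2.

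The ribosomal large subunit held 3 of the 4 falls. For rpl20, whose product in Escherichia coli is needed early in the assembly of the large subunit, signals were 81.5 for water and 45.9 and 49.1 for 2,4-D. That was 1.72-fold lower (log2 change -0.78 ± 0.30, limma adjusted p = 0.0499), at the very edge of the threshold. The call was lost under 5 of the 6 other settings that tested the gene, with adjusted p-values from 0.0463 to 0.126.

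Signals of rpl32 were 1208 for water and 898 and 736 for 2,4-D (-0.57 ± 0.21, limma adjusted p = 0.0391). Those of rpl36 were 209 for water and 143 on both treated arrays (-0.55 ± 0.21, limma adjusted p = 0.0432). Both are genes for small proteins of the large subunit, and both changed by about 1.5-fold (1.49-fold and 1.46-fold lower). The rpl32 call was lost under 3 of 7 other settings (adjusted p-values from 0.0097 to 0.17) and the rpl36 call under 4 of 7 (0.0416 to 0.164). Scaling the arrays to 1 median ended all 3 of these calls.

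The opposite change was seen for rpl22, whose product in Escherichia coli lines the tunnel through which the new protein leaves. Its signal rose from 185 for water to 340 and 309 with 2,4-D, or 1.75-fold (log2 change 0.81 ± 0.20, limma adjusted p = 0.00051). Its call was lost only without the trend over signal (adjusted p = 0.0596). The rpl14 gene lay on the same side, with 49.8 for water and 75.0 and 79.0 for 2,4-D (0.63 ± 0.28), and did not pass (limma adjusted p = 0.0989), except when the arrays were scaled to 1 median (adjusted p = 0.0422).

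Little difference was measured for rpl33 and rpl16. The signals of rpl33 were 1175 for water and 1109 and 1138 for 2,4-D (-0.07 ± 0.22, and 0.05 with the arrays scaled to 1 median). Those of rpl16 were 158 for water and 192 and 148 for 2,4-D (0.09 ± 0.21), so that the treated arrays lay on either side of water. Over the 7 large-subunit genes the median log2 change was -0.08 on 2,4-D replicate 1 and -0.10 on replicate 2. Over all 15 ribosomal genes, 2 were called higher and 3 lower, against 10.8% and 10.5% of all tested probe sets. Above water on both arrays lay 7 and below it 6, against 32.5% and 46.3% of all probe sets. The medians of the 15 genes were 0.15 and 0.16.

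**Figure D3:**
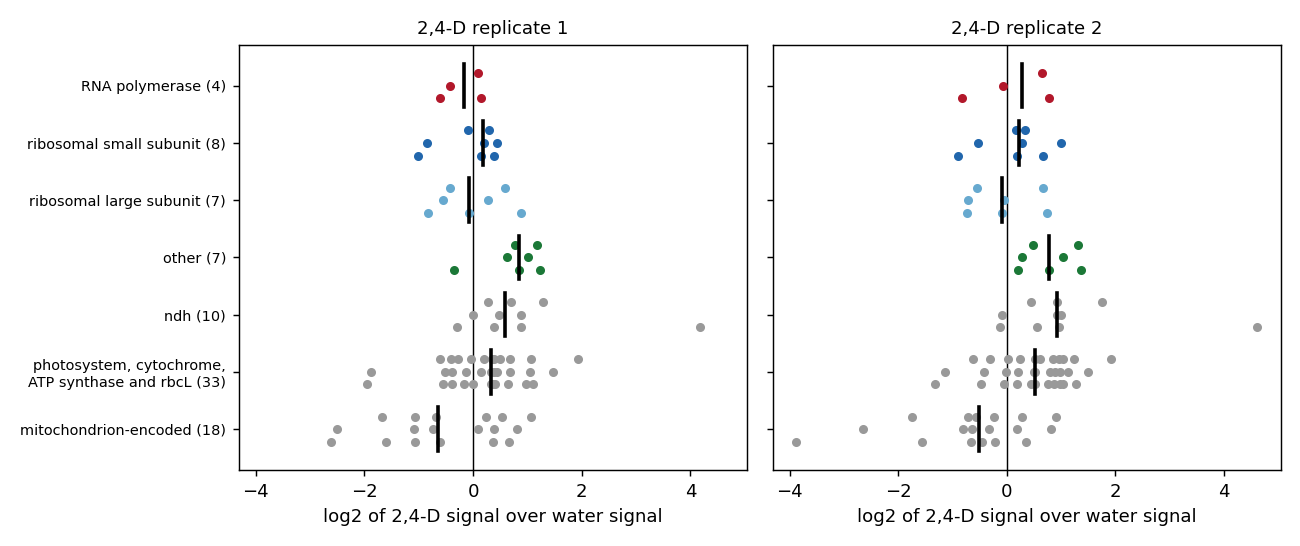
Log2 of 2,4-D over water for each probe set (points) on 2,4-D replicate 1 (left) and replicate 2 (right), with the median of each class as a bar and the number of probe sets in parentheses. The medians of the other genes, 0.84 and 0.77, lie to the right of those of the RNA polymerase and ribosomal genes on both arrays.

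The genes of other roles had the highest median of the 3 classes on each treated array. The RNA polymerase genes had a lower median than the ribosomal genes on 2,4-D replicate 1 and a higher one on replicate 2, but the latter rests on rpoB. Without that probe set, whose water signal lay below the dim control, the polymerase medians of -0.42 and -0.08 were below the ribosomal ones of 0.15 and 0.16 on both arrays. These polymerase medians are the values of rpoC2, the middle of the 3 genes left, whose change did not pass (limma adjusted p = 0.701). No test was made between the classes, whose genes share clusters and arrays.

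Compared with the rest of the plastid genome, the median log2 change of the 10 ndh probe sets (NADH dehydrogenase-like complex) was 0.59 on 2,4-D replicate 1 and 0.93 on replicate 2. For the 33 probe sets of photosystem, cytochrome, ATP synthase and rbcL genes it was 0.33 and 0.53. Of these 43 other plastid probe sets, 39 were tested. Called higher were 13 and lower 4, against 10.8% and 10.5% of all tested probe sets. The ribosomal medians of 0.15 and 0.16 thus lay below both groups. Those of matK, accD and their class (0.84 and 0.77) lay above the photosystem group, but above the ndh group only on 2,4-D replicate 1. Of the 8 ndh probe sets tested, 5 were called higher and 0 lower, so a rise was not particular to that class. No test was made of these differences. With the 7 probe sets of 2 gene records added to their classes, the median of the other genes on replicate 2 was 0.48, below the photosystem group's. The 18 mitochondrion-encoded probe sets, of which only 4 passed the filter, had medians of -0.64 and -0.52. Of these, 5 lay above water on both treated arrays and 10 below it on both, against 32.5% and 46.3% of all probe sets. Most of those 10 were for 1 gene, nad1, so these medians do not stand for as many genes.

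The treated arrays also differed from each other across the plastid genome. The signal was higher on 2,4-D replicate 2 than on replicate 1 for 18 of the 26 members and for 34 of the 43 other plastid probe sets, against 49.5% of all tested probe sets. In the same direction moved the summed signal of the green tissue markers, 13273 against 20422. The part of that difference in the plastid values was not tested. Among the called members the gap between the treated arrays was widest for rps2, at 0.55 log2 units, and over the 26 members its median was 0.18, beside 0.20 for all tested probe sets.

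In the order of genes on the plastid genome, several members that lie side by side had changes of opposite sign. The cluster with rpoB, rpoC1 and rpoC2 adjoins rps2, which rose, while rpoC1 fell and rpoC2 had a change of -0.25 that did not pass. In the large ribosomal cluster that ends with rpoA, 7 of 12 genes had a member probe set. Of these rpl22 rose and rpl36 fell, with rps19, rps3, rpl16, rpl14 and rpoA between -0.10 and 0.66 on each array. The cluster's median change was 0.33. Above water on both treated arrays lay 5 of the 7 and below it 1, against 32.5% and 46.3% of all probe sets.

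Elsewhere, rpl20 fell by 0.78 on the log2 scale and clpP, separated from it by an exon of rps12, rose by 0.55. Likewise rpl32 (-0.57) and its neighbour ccsA (0.81) moved in opposite directions. On one end of the map matK (1.301) is followed by rps16 (-0.69), which did not pass. Of the genes read mainly by the nuclear-encoded polymerase, rpoC1 fell (-0.71) and accD rose (1.24).

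**Figure D4:**
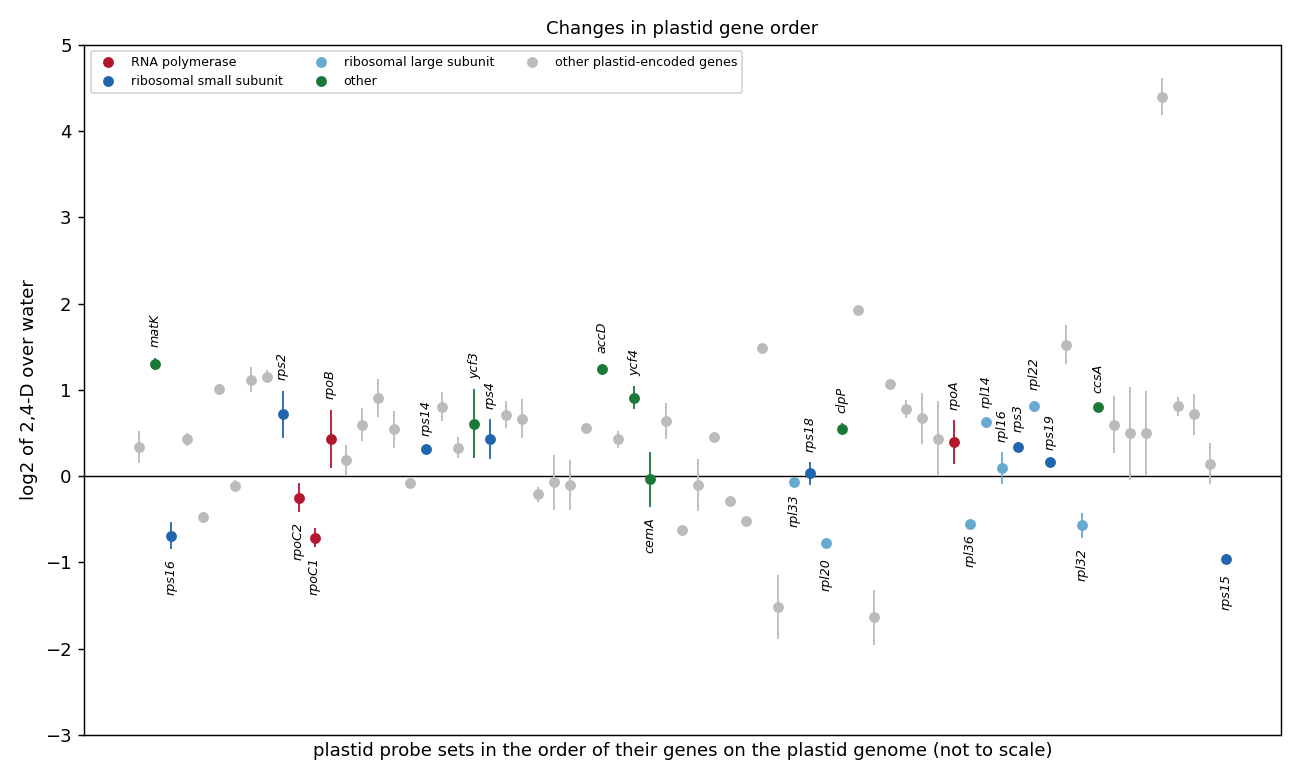
Mean log2 change with 2,4-D (points) and the values on each treated array (ends of the lines) for plastid probe sets in the order of their genes. Members are coloured by class and named, and the other plastid genes are grey. Neighbours such as rpl32 and ccsA, or matK and rps16, lie on opposite sides of 0.

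Nuclear genes of the same pathways could be followed only in small part. Of 94 genes in 5 lists (plastid transcription, plastid ribosomal proteins, Clp protease, acetyl-CoA carboxylase and plastid RNA processing), 17 had a probe set listed with 1 gene and 16 were tested. None was called by limma, against 10.8% of all tested probe sets called higher and 10.5% lower. Of the 16 tested, 3 had an unadjusted limma p under 0.05. The 10 tested plastid ribosomal protein genes of the nucleus had a median log2 change of -0.12 (from -0.50 to 0.28), and the lowest was AT4G17560, with 675 for water and 427 and 532 for 2,4-D (limma adjusted p = 0.0516).

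For the Clp protease, 5 nuclear genes were tested, with a median change of 0.12. CLPP4, whose product sits in the same protease core as that of clpP, gave 540 on the water array and 755 and 714 with 2,4-D (0.44 ± 0.20, limma adjusted p = 0.102). Both treated arrays lay above water, as for clpP, without passing. The same held for CLPR3 and for CLPT1 (0.43 ± 0.19, limma adjusted p = 0.0983), whereas CLPS1 and CLPT2 lay on both sides of water. In plastid RNA processing the splicing factor gene CAF1 had 99.8 for water and 89.6 and 77.5 for 2,4-D (-0.26 ± 0.25). The single listed gene of plastid transcription with a probe set, AT5G15700, was not tested, its signals of 8.68 for water, 3.36 for 2,4-D replicate 1 and 7.72 for replicate 2 being all below the brightest dim control. No gene of the acetyl-CoA carboxylase list had a named probe set.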

How the data were processed

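The deposited table held linear intensities, which the authors computed with MAS5, per the submitters' processing notes. That method gives 1 value per probe set from matched and mismatched probes and scales each array. Its version, its scaling target and the genome build are not given in the sources at hand, and coordinates are left out. Of 22810 probe sets, 64 controls were left out. Of the other 22746, 13513 were listed with 1 gene, 503 with several and 8730 not at all. Loci, names and gene order came from RefSeq's gene table of TAIR10.1. No sequence is shown, since none was among the files used here.

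Signals were taken to log2 without an offset or further normalization. Probe sets with a mean signal at or above the 40th percentile (24.8) were tested with limma 3.58.1 (lmFit and eBayes with an intensity trend, R 4.3.3) over all 13648, with Benjamini-Hochberg adjustment and a threshold of 0.05. Because 2 of the 3 arrays in that mean were treated, dim genes that rose passed more easily than dim genes that fell. The treated pair gave the 1 residual degree of freedom, the same spread was assumed for the water array, and the prior degrees of freedom were infinite, so the variance was read from the trend alone. The number of arrays limits the precision. The fit was also run on simulated data, with noise drawn from its own variance, equal on all arrays. That run could not test whether the water array had the same spread as the treated pair. Low signals were judged against 27 dim probe sets for Bacillus transcripts. The alternatives were other filters, scalings, an offset of 16, no trend, raised dim signals and each treated array left out. Named were all members, and from each list those called or changed most. The members, lists and tests were chosen with earlier results of these data known.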

Additional observations from a re-analysis of the deposited data

How the results depend on the processing

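Of the 11 called members, matK, accD and ycf4 kept their call under every alternative that tested them (7 settings, 6 for accD). The counts of 7 higher and 4 lower members became 3 and 1 without the trend over signal. That 1 lower member was rps15, which was not called in the main fit and passed the filter only through its water signal. All 4 falls of the main fit (rpoC1, rpl20, rpl32 and rpl36) lost their call there. The lower count was 1 without a filter, 2 with the stricter filter and 1 with the arrays scaled to 1 median. Over all probe sets, 1472 higher and 1434 lower became 964 and 710 without a filter and 834 and 839 without the trend. With the arrays scaled to 1 median, the median over tested probe sets was 0.07 in place of -0.04, with 2027 higher and 995 lower, 67.1% of calls higher against 50.7%. With that scaling rpl33 turned to 0.053 and cemA to 0.080, and after quantile normalization rps18 turned to -0.0090; none of them was called. On 2,4-D replicates 1 and 2 the ribosomal medians were 0.26 and 0.28 with 1 median, 0.12 and 0.12 after quantile normalization, 0.27 and 0.29 minus the median of all probe sets, and 0.050 and 0.15 with the 7 probe sets of 2 records, chosen after seeing the data. The medians of the other genes were 0.95 and 0.89 with 1 median, 0.96 and 0.89 minus the median of all probe sets, 0.78 on replicate 1 with the offset, and 0.48 on replicate 2 with the 7 probe sets. The RNA polymerase median on replicate 2 was -0.079 without the probe set below the dim controls. Members at least 2-fold higher on both arrays numbered 1 with the offset, where accD was no longer among them. On 1 treated array alone they numbered 3 (either array), and those at least 2-fold lower 0 to 1. Without a treated array no test could be made, since no residual degree of freedom was left, and every called member kept its direction on each array. No paired analysis was possible because the water group has 1 array and the groups share only 1 replicate number. Dim signals limit rpoB, rps14 and rps15, and changes near 0 turn with the scaling.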
